A study of Mus musculus with 12 samples.

Results

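Meiotic initiation regulators are the genes through which a spermatogonium receives the order to enter meiosis and carries it out. The 7 described here, Stra8, Gm4969 (Meiosin, listed in RefSeq as Bhmg1), Meioc, Ythdc2, Sohlh1, Sohlh2 and Kit, were chosen by name for their known roles, and they are 7 of the 55450 genes in the deposited count tables. They were followed through 12 libraries of single testis germ cells from mice, 3 in each of 4 groups, with 929 kept cells (50 to 94 per library). All mice were C57BL/6. The 4 groups were WT and Zfp541-/- (knockout) testes, each collected 260 h or 360 h after an injection of retinoic acid. Every group, wild type included, had been fed the retinoic acid synthesis inhibitor WIN 18,446 from 2 days after birth for 7 days and then received the injection on Day 8, which makes germ cells enter meiosis together. The 260 h groups are labelled early pachytene and the 360 h groups late pachytene, pachytene being the stage at which homologous chromosomes are fully paired. Cells were picked by mouth pipette, and nothing in the labels ties a group's 3 libraries to different mice, so a p-value here reflects library-to-library spread alone, some of which may be technical. The labels do not say which part of Zfp541 was deleted.

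Retinoic acid acts through nuclear receptors to switch on Stra8 in differentiating spermatogonia, and the STRA8 protein joins MEIOSIN to activate genes of meiotic prophase. MEIOC and YTHDC2 form an RNA-binding complex, with RBM46, that ends the mitotic programme and lets prophase go on. SOHLH1 and SOHLH2 are basic helix-loop-helix factors of spermatogonial differentiation that act upstream of Kit, the receptor for Kit ligand, which Sertoli cells make.

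The cells were not evenly matched between libraries, and this touches most of the 7 genes. The authors' cell table sorted the kept cells into 5 k-means clusters: cluster 1 (pre-meiotic, 137 cells), clusters 2 and 3 (early pachytene, 88 and 214 cells) and clusters 4 and 5 (late pachytene, 222 and 268 cells). The summed level of 18 spermatogonial markers was 2809 CPM (UMI counts of a gene scaled to the library's total) in cluster 1 and 575 to 734 CPM in the other clusters. At 260 h every library held pre-meiotic cells (24, 11 and 17 in wild type, 23, 20 and 18 in knockout). At 360 h wild type held 2, 2 and 1, and knockout held 0, 9 and 10. Wild-type library 3 at 260 h stood apart from its group, since its 72 early pachytene cells all lay in cluster 3 with those of knockout (59, 50 and 32), while wild-type libraries 1 and 2 had theirs in cluster 2 (25 of 25 and 56 of 57). Knockout library 1 at 360 h stood apart as the only library with no pre-meiotic cell. The late pachytene cells of the 360 h groups lay in cluster 4 in knockout (77, 66 and 77) and in cluster 5 in wild type (83, 91 and 93). The top 10 genes of cluster 3 held 0 early pachytene markers and 1 marker of leptotene to zygotene. Since these were more markers of another stage than of its own, no test was made between genotypes within the early pachytene class. The fits without pre-meiotic cells at 260 h still rest on cells of that class, besides 3 late pachytene cells of wild-type library 1. The top 10 genes of cluster 2 held 1 early pachytene marker (Sycp1) and 1 macrophage marker (C1qb). Those of clusters 1, 4 and 5 held 0 markers of any cell type or stage, their own included. Their classes were tested without support from this check. Leptotene to zygotene markers summed to 2572 CPM in cluster 2 and 2435 in cluster 3, and early pachytene markers to 8137 and 5649. Libraries had 3601518 to 27202665 gene UMIs (unique molecular identifiers, each marking 1 cDNA molecule). Zfp541 itself (chromosome 7, 16061814 to 16096334, the same chromosome as Gm4969) was still counted in knockout, at 75.8 to 123 CPM against 38.1 to 129 in wild type at 260 h and at 130 to 156 against 170 to 200 at 360 h. Its 3′ counts therefore do not check the genotype labels, the deleted part not being known here. All libraries used the same 96 cell barcodes, and 13 barcodes of kept cells occur in all 12.

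Gm4969 was the 1 member that was higher in knockout at both times, and its neighbour Six5 rose with it, so their promoters are shown first. Gm4969 (ENSMUSG00000085601.7, mm10 chromosome 7, 19099046 to 19118368, minus strand) and Six5, a homeobox gene (19094594 to 19098549, plus strand), end 496 bases apart and point at each other. The stretches printed here lie just before the RefSeq starts (GRCm38.p6), read in the direction of each gene, at chr7:19118369-19118594 on the minus strand for Gm4969, without the 24 bases that an annotated exon covers, and at chr7:19094294-19094543 on the plus strand for Six5. Capitals mark the 3 matches in the Gm4969 stretch to the motifs described after them.
Gm4969: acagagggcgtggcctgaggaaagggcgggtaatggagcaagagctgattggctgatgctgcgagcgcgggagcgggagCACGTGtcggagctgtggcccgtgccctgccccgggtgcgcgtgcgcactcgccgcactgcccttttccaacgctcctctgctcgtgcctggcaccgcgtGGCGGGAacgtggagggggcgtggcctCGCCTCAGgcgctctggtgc
Six5: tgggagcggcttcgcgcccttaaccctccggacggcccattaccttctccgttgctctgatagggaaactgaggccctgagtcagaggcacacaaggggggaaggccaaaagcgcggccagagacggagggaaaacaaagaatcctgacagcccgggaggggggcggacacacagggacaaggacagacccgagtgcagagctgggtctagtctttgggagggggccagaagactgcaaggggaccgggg

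The motifs were searched on both strands of the 250 bases before each RefSeq start for 7 genes (6 members and Six5). Ythdc2 was left out of this search. CNCCTCAG, a sequence reported at promoters that STRA8 and MEIOSIN bind, began 44 bases before the start of Gm4969 and, as CCCCTCAG, 22 bases before that of Sohlh2, and was in 6.417% of 32851 promoters of the same length. CACGTG, an E-box that basic helix-loop-helix factors bind, lay 171 bases before Gm4969 and 231, 211 and 192 bases before Sohlh1 (6.021% of promoters). AGGTCA, the repeat unit in retinoic acid receptor sites, lay 194 and 38 bases before Stra8 and 215 before Sohlh1, where it overlaps the CACGTG at 211 (14.02% of promoters). GGCGGGA, of the kind bound by E2F factors, lay 71 bases before Gm4969 and 97 before Kit (9.753% of promoters). The looser CANNTG, of which CACGTG is 1 form, was in 66.22% of promoters. Meioc and Six5 had no match to any of the 5 motifs in this window. The RefSeq start used is not always the start of the annotated gene span. All 250 bases of the Stra8 window (34920698 to 34920947) lie in an annotated exon, inside the span of Stra8. The Meioc window (102665335 to 102665584) also lies inside the span of its gene. Annotated exons cover 16 bases of the Sohlh2 window and 71 of the Kit window. A match describes the letters and is not a bound site.

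**Figure D1:**
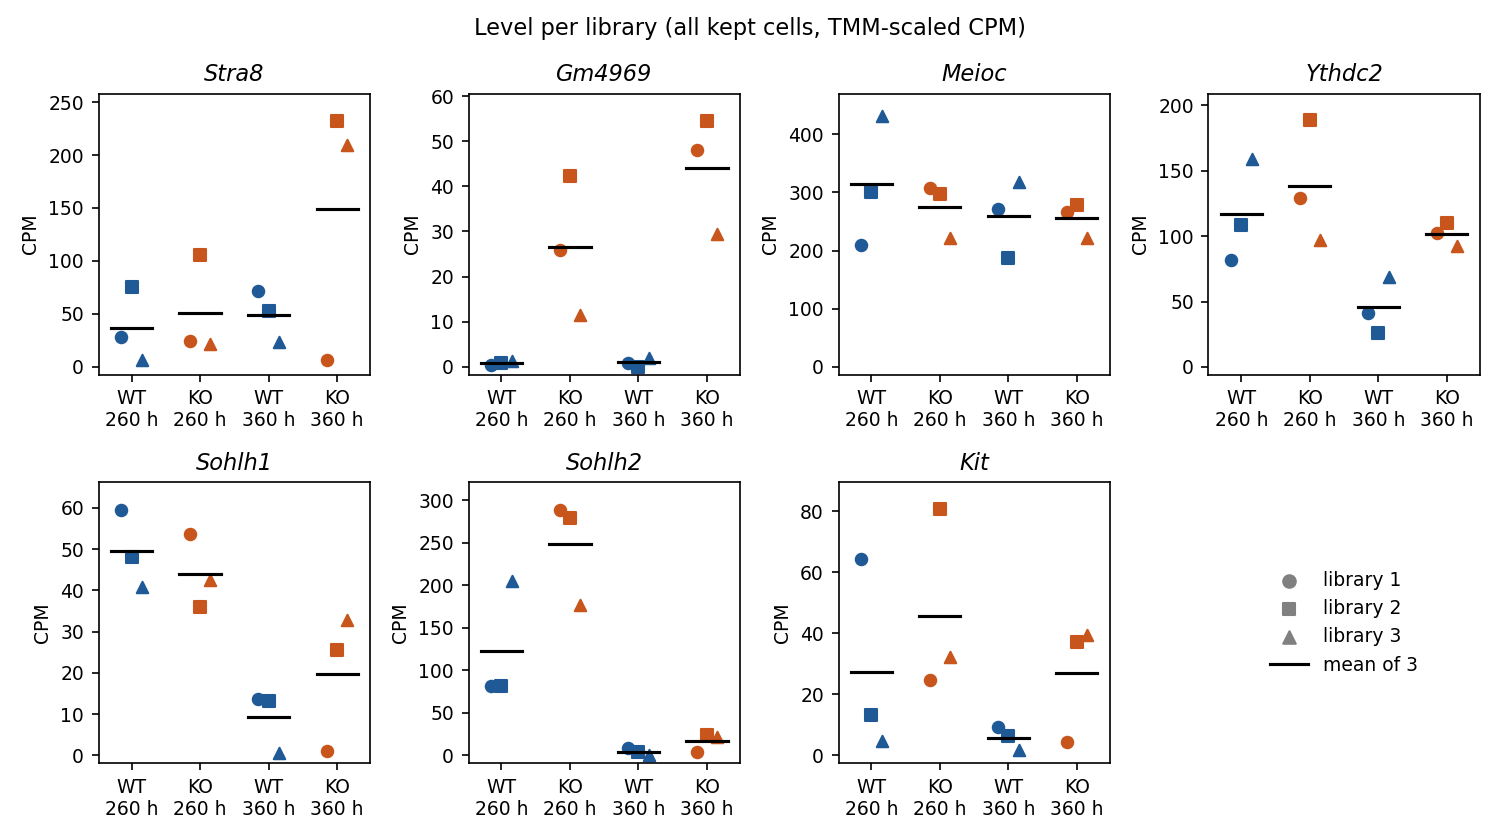
Level of each of the 7 genes in every library (vertical axis, CPM of all kept cells, scaled by the trimmed mean of M-values, linear axis per gene) for the 4 groups, with wild type in blue, knockout in orange and the mean of 3 as a bar. Gm4969 is at 11.5 CPM or more in each knockout library and at 2.04 or less in each wild-type library, while Stra8, Sohlh1 and Kit in knockout at 360 h split into library 1 (6.18, 1.13 and 4.29 CPM) and libraries 2 and 3.

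Taken as sums per library, 1 of the 7 genes was higher in knockout at 260 h (Gm4969) and 0 were lower, where 1.89% of all 20279 genes tested were called (0.582% higher, 1.31% lower). At 360 h 2 were higher (Gm4969 and Ythdc2) and 0 lower, against 22.5% of all genes called (8.93% higher, 13.5% lower). Calls are edgeR quasi-likelihood tests fitted to all 12 libraries, with a Benjamini-Hochberg adjusted p under 0.05. All 7 passed the filter on low counts. Their median log2 fold change was 0.47 at 260 h and 1.60 at 360 h, where that of all genes was −0.01 and 0.03. Both medians of the 7 are the values of Stra8, which was not called at either time. Levels are given in CPM per library in replicate order. In sums of cells, fewer cells of a type and less RNA per cell cannot be told apart.

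**Figure D2:**
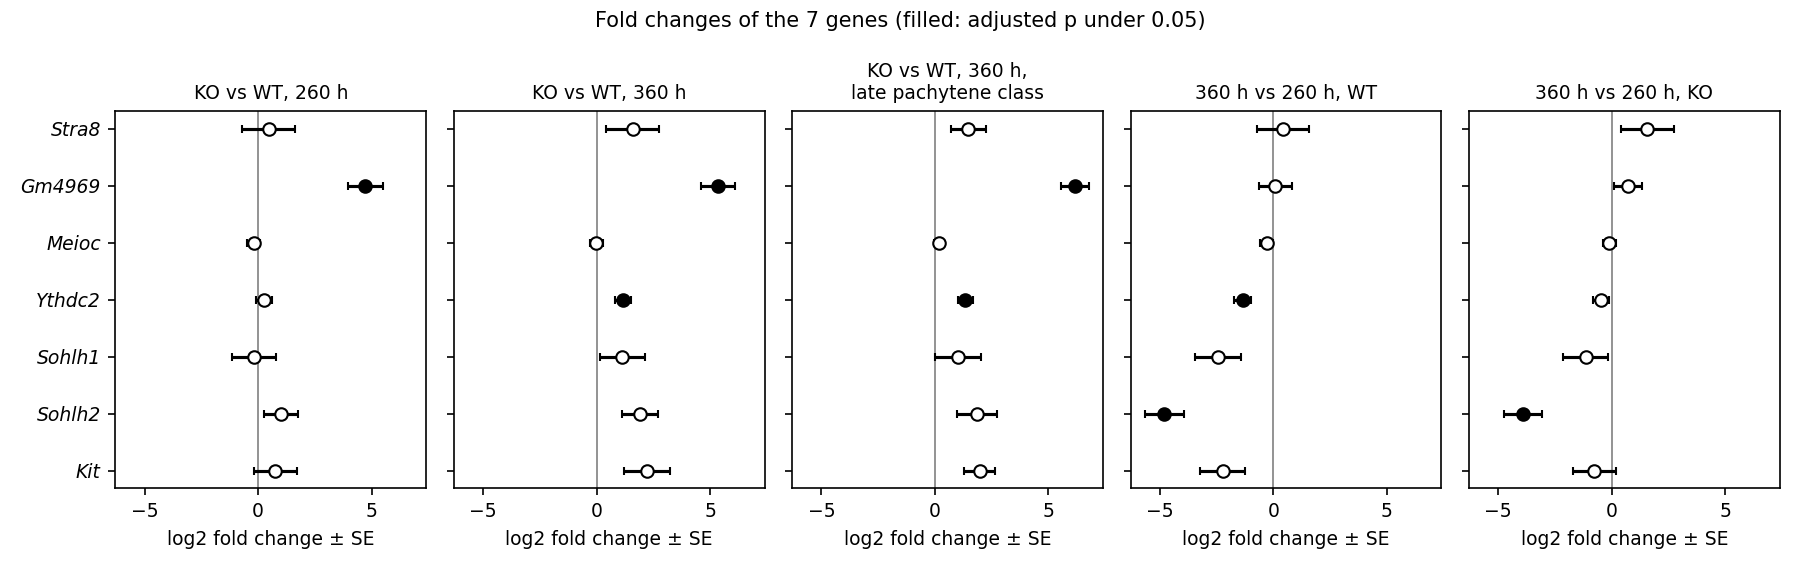
Log2 fold change (horizontal axis) with its SE for each of the 7 genes in 5 comparisons, filled where the adjusted p of edgeR's quasi-likelihood test is under 0.05. Gm4969 is filled in the 3 genotype comparisons, Ythdc2 at 360 h and Sohlh2 in both comparisons of the times; Ythdc2 is also filled for the late pachytene class and for wild type over time.

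Gm4969 encodes the partner of STRA8. At 260 h its level was 0.473, 0.889 and 1.38 CPM in wild type (2, 5 and 19 UMIs) and at 25.9, 42.3 and 11.5 CPM in knockout (282, 309 and 56 UMIs). At 360 h its level was 0.825, 0.0943 and 2.04 CPM in wild type (9, 1 and 46 UMIs) and at 48.2, 54.4 and 29.4 CPM in knockout (382, 531 and 324 UMIs). Every knockout library lay above every wild-type library at both times. The means were 26.6 ± 15.4 against 0.915 ± 0.456 CPM at 260 h (SD, n = 3 each), a log2 fold change of 4.73 ± 0.75 (edgeR adjusted p = 0.00432). At 360 h they were 44.0 ± 13.0 against 0.985 ± 0.980 CPM, a log2 fold change of 5.37 ± 0.74 (edgeR adjusted p = 1.28e-04). The genotype effects of the 2 times were not called as different (0.64 ± 0.96, edgeR adjusted p = 0.765), nor were the times within wild type (0.08 ± 0.73, adjusted p = 0.938) or within knockout (0.72 ± 0.61, adjusted p = 0.420). Set against wild-type library 3 alone at 260 h, the fold change was 4.16 ± 1.29 and was not called (edgeR adjusted p = 0.242).

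Gm4969 was higher in knockout with the pre-meiotic cells left out as well. Without pre-meiotic cells the log2 fold change was 5.63 ± 0.76 at 260 h (edgeR adjusted p = 9.33e-04) and 6.09 ± 0.72 at 360 h (adjusted p = 3.25e-05). In late pachytene cells of 360 h Gm4969 stood at 44.5, 56.1 and 29.9 CPM in knockout (cluster 4) and at 0.707, 0.0799 and 0.876 CPM in wild type (cluster 5), a log2 fold change of 6.18 ± 0.61 (edgeR adjusted p = 1.75e-04). Knockout library 1, which held no pre-meiotic cell, lay between the other two. In the early pachytene class at 260 h it stood at 34.6, 59.6 and 18.9 CPM in knockout, and at 0, 1.19 and 0.827 CPM in wild type, where library 3 has its cells in the same cluster as knockout. With each cell thinned to 40000 gene UMIs, 35.4%, 32.9% and 28.0% of knockout cells at 260 h had a Gm4969 UMI, against 1.92%, 2.94% and 5.62% of wild-type cells. At 360 h the shares were 68.8%, 72.5% and 60.7% in knockout and 3.53%, 0% and 2.13% in wild type, the 0 being 0 of 93 cells, which allows a share of up to 3.23% by counting error alone. Without thinning they were 90.9%, 90.0% and 85.4% against 9.41%, 1.08% and 9.57%. A single pre-meiotic cell of wild-type library 3 at 360 h gave 23 of that library's 46 Gm4969 UMIs.

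Six5 moved with Gm4969, and no source used here says whether reads were counted by strand, so the level of Gm4969 is uncertain. Six5 was at 10.2, 3.02 and 3.86 CPM in wild type, and 78.3, 35.7 and 49.2 in the knockout at 260 h (log2 fold change 3.31 ± 0.51, edgeR adjusted p = 0.00389). At 360 h its level was 4.22, 1.13 and 4.42 CPM in wild type, and 178, 171 and 161 in the knockout (5.68 ± 0.56, edgeR adjusted p = 6.32e-06). In thinned knockout cells at 360 h, 165 of 246 had UMIs of both genes, 80 of Six5 alone and 0 of Gm4969 alone. At 260 h in knockout 53 of 202 had both, 99 Six5 alone and 13 Gm4969 alone. Whether reads of one gene are counted for the other was not tested. Fbxo46, an F-box gene that starts 1490 bases from the start of Gm4969 on the other strand, was not called at 260 h (−0.29 ± 0.41, edgeR adjusted p = 0.846) and was lower in knockout at 360 h (−1.24 ± 0.41, edgeR adjusted p = 0.0389). That call was lost with the replicate number as a block (−1.25 ± 0.44, edgeR adjusted p = 0.0586), with no filter (0.0848), without pre-meiotic cells (0.0543) and without wild-type library 1 or 2 or knockout library 2 or 3 (0.0801 to 0.201).

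**Figure D3:**
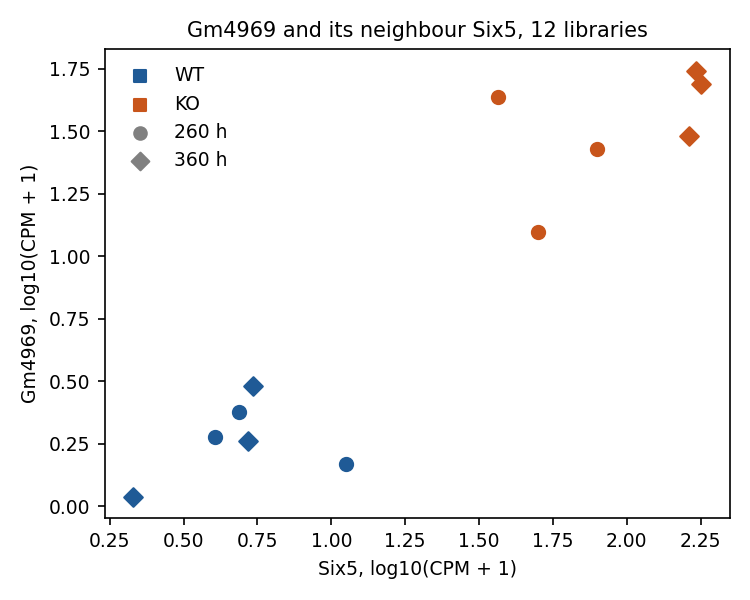
Gm4969 (vertical axis) against Six5 (horizontal axis), each as log10(CPM + 1) on a linear scale of that value, in the 12 libraries, with circles for 260 h and diamonds for 360 h. The 6 knockout libraries lie apart from the 6 wild-type libraries on both axes, Six5 at 35.7 CPM or more against 10.2 or less.

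Stra8 (ENSMUSG00000029848.11, chromosome 6, 34920163 to 34939344, plus strand), the retinoic acid target that opens meiosis, varied widely between libraries of a group. It was at 28.6, 75.2 and 6.55 CPM in wild type, and 24.4, 105 and 21.4 in the knockout at 260 h. At 360 h its level was 71.3, 52.8 and 23.8 CPM in wild-type libraries, and in knockout at 6.18, 232 and 210. The groups overlapped at both times. At 360 h knockout library 1 was the lowest of all 12 libraries and knockout libraries 2 and 3 were the highest. Neither genotype comparison was called: the log2 fold change was 0.47 ± 1.16 at 260 h (edgeR adjusted p = 0.925) and 1.60 ± 1.17 at 360 h (edgeR adjusted p = 0.365). The order of the group means was knockout 360 h (149 ± 125 CPM, SD, n = 3), knockout 260 h (50.4 ± 47.7), wild type 360 h (49.3 ± 23.9) and wild type 260 h (36.8 ± 35.1), and no neighbours or other pair of groups differed beyond their spread.

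Stra8 was concentrated in few cells. At 360 h the pre-meiotic cells of wild type (2, 2 and 1 cells) held 56.3%, 57.5% and 50.4% of their library's Stra8 UMIs, and those of knockout libraries 2 and 3 (9 and 10 cells) held 60.8% and 63.3%. Per cell, these cells had more Stra8 UMIs than most pre-meiotic cells of 260 h, given here as a description. Thinned to 40000 UMIs, the median pre-meiotic cell had 77 Stra8 UMIs in wild type (5 cells, lowest 39) and 62 in knockout (19 cells, lowest 12) at 360 h, against 1 in wild type (52 cells) and 2 in knockout (61 cells) at 260 h. The highest pre-meiotic cell at 260 h had 45 in each genotype. In the pre-meiotic class at 260 h Stra8 was at 69.9, 376 and 17.7 CPM in wild type, and 66.7, 314 and 54.9 in the knockout, and was not called (−0.04 ± 1.38, edgeR adjusted p = 0.999).

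Outside the pre-meiotic cluster Stra8 was lower than inside it in each of the 11 libraries that hold pre-meiotic cells. Within the late pachytene class at 360 h the level was 26.7, 19.0 and 10.2 CPM in wild type, and 5.71, 70.4 and 78.8 in the knockout (log2 fold change 1.48 ± 0.76, edgeR adjusted p = 0.165). Without knockout library 1 it was called there (1.94 ± 0.38, edgeR adjusted p = 0.00905). Thinned, 13.0% of late pachytene cells of knockout library 1 had a Stra8 UMI against 93.9% and 94.8% in libraries 2 and 3, and 57.8%, 37.4% and 33.3% in wild type. The level in all other cells was 6.87% and 6.73% of that in pre-meiotic cells in knockout libraries 2 and 3, and 1.33%, 1.33% and 0.407% in wild type. The same ratio was taken for those of 18 spermatogonial markers that had at least 100 UMIs in the pre-meiotic cells of a library. It was 3.32% to 21.6% (median 7.43%, 6 markers) in knockout library 2 and 6.78% to 174% (median 14.3%, 7 markers) in library 3. In wild type it was 1.66% and 4.15% (2 markers) in library 1 and 1.49% and 2.90% (2 markers) in library 2. Wild-type library 3 had no such marker. Markers passed through the cells where they are high, which favours low ratios, so these ratios are no yardstick for Stra8. The part of transfer of RNA between cells of a library in these values was not tested.

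**Figure D4:**
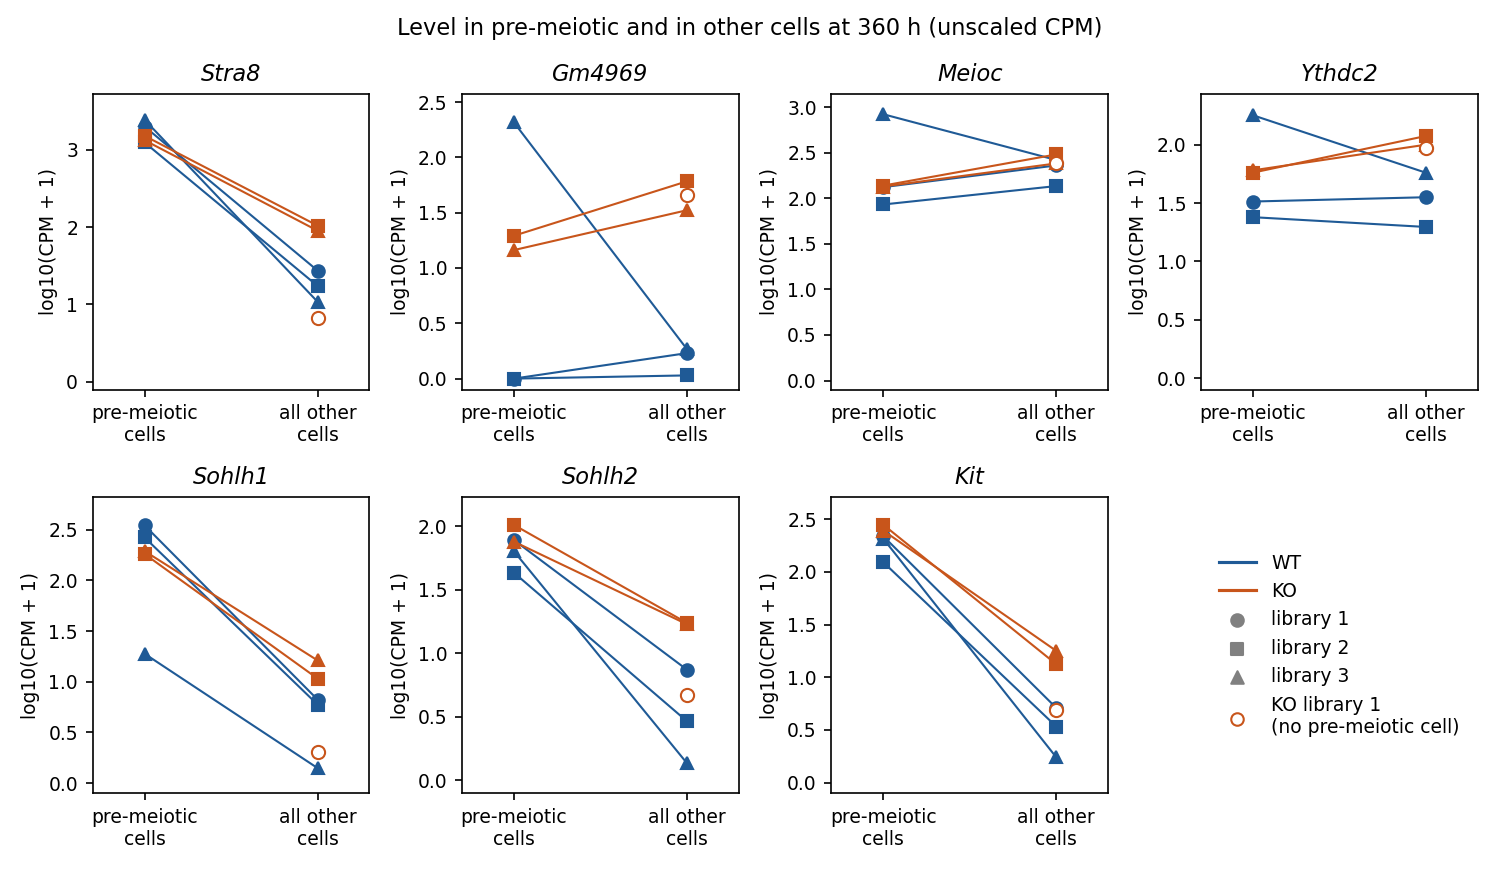
Level at 360 h in the pre-meiotic cells (left) and all other cells (right) of each library, as log10(CPM + 1) without scaling between libraries, 1 panel per gene, wild type in blue and knockout in orange; the open circle is knockout library 1, which has no pre-meiotic cell. Stra8, Sohlh1, Sohlh2 and Kit fall from left to right in every library, Gm4969 rises in both knockout libraries, and pre-meiotic values of wild type rest on 2, 2 and 1 cells.

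Meioc (ENSMUSG00000051455.13, chromosome 11, 102663716 to 102682237, plus strand), the meiosis-specific partner of YTHDC2, was present at every stage, and its log2 fold changes over all 6 pairs of groups lay between −0.30 and −0.02. It was at 210, 301 and 431 CPM in wild type, and 308, 297 and 221 in the knockout at 260 h, and at 271, 187 and 317 in wild type, and 267, 279 and 222 in the knockout at 360 h. The groups overlapped at both times. The log2 fold change of knockout against wild type was −0.19 ± 0.29 at 260 h (edgeR adjusted p = 0.858) and −0.02 ± 0.29 at 360 h (edgeR adjusted p = 0.974). Its group means, from 314 ± 111 CPM in wild type at 260 h down to 256 ± 30.1 in knockout at 360 h, gave no called pair. By cluster, Meioc was at 140 CPM in pre-meiotic cells, 377 and 444 in the early pachytene clusters 2 and 3, and 260 and 219 in the late pachytene clusters 4 and 5. At least 94.7% of the thinned cells of every cluster and group with over 4 cells had a Meioc UMI.

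Ythdc2 (ENSMUSG00000034653.11, chromosome 18, 44827746 to 44889724, plus strand), the RNA helicase that binds m6A and acts with MEIOC, fell in wild type between the times and was higher in knockout at 360 h. Its libraries read 82.1, 108 and 159 CPM in wild type, and 129, 189 and 97.4 in the knockout at 260 h. At 360 h wild type was at 41.4, 26.3 and 69.0 CPM and knockout at 102, 110 and 92.3, so that the groups did not overlap. The means at 360 h were 101 ± 8.70 against 45.6 ± 21.6 CPM (SD, n = 3 each; log2 fold change 1.15 ± 0.36, edgeR adjusted p = 0.0296). That call was lost with spike-in scaling (0.46 ± 0.58, adjusted p = 0.628), and without any 1 of wild-type libraries 1 and 2 or knockout libraries 1, 2 and 3 (edgeR adjusted p = 0.102, 0.143, 0.0699, 0.110 and 0.0715). Within the late pachytene class Ythdc2 was at 94.4, 108 and 91.6 CPM in knockout and 35.0, 21.8 and 58.6 in wild type (1.35 ± 0.33, edgeR adjusted p = 0.0133). That call was lost without knockout library 1 or 2 (edgeR adjusted p = 0.0528 and 0.0581).

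From 260 h to 360 h Ythdc2 fell by 1.35 on the log2 scale in wild type (SE 0.36, edgeR adjusted p = 0.00756), a call lost with spike-in scaling (−0.88 ± 0.58, adjusted p = 0.270). In knockout the change was −0.45 ± 0.35 (edgeR adjusted p = 0.382), and the 2 changes were not called as different (0.90 ± 0.50, edgeR adjusted p = 0.325). The order of the means was knockout 260 h (138 ± 46.6 CPM), wild type 260 h (117 ± 39.3), knockout 360 h and wild type 360 h. Only the last neighbours in that order differed beyond their spread. The 2 partners were detected together in most cells, with UMIs of both in 239 of 246 thinned knockout cells at 360 h, but in wild type at 360 h 178 of 272 had both and 91 had Meioc alone. The plot of late pachytene cells shows the same at the level of cells: 97.4%, 100% and 98.7% of knockout cells and 73.5%, 44.0% and 79.6% of wild-type cells had a Ythdc2 UMI.

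**Figure D5:**
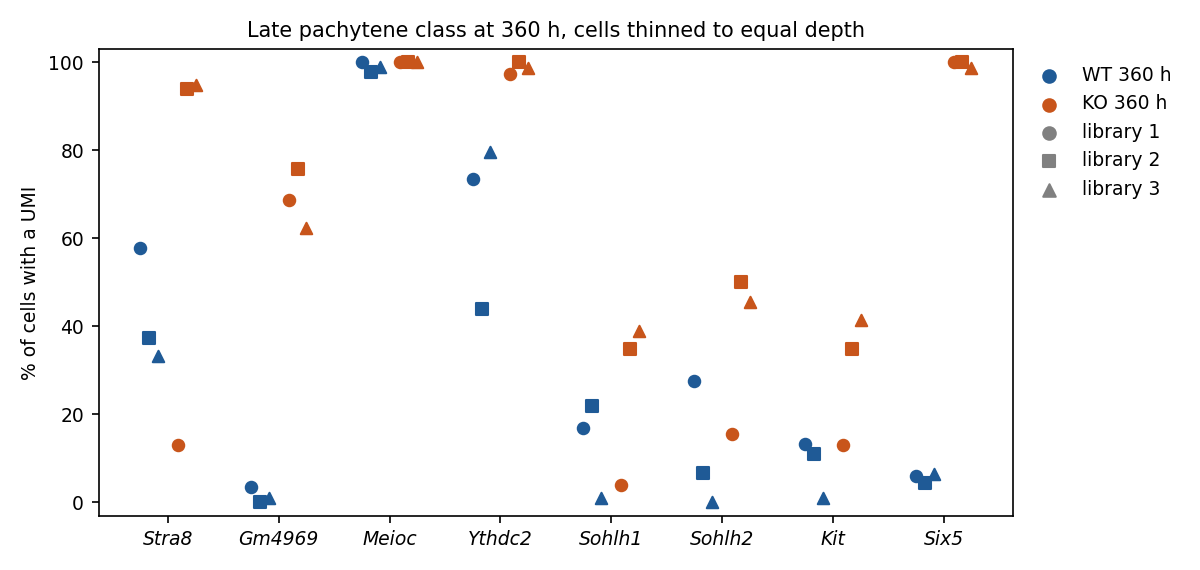
Share of late pachytene cells at 360 h with at least 1 UMI (vertical axis, percent of cells, each thinned to 40000 gene UMIs) for the 7 genes and Six5, 1 point per library, wild type in blue and knockout in orange. Gm4969, Ythdc2 and Six5 are higher in all 3 knockout libraries, and knockout library 1 lies with or below wild type for Stra8 (13.0%) and Sohlh1 (3.90%).

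Sohlh2 (ENSMUSG00000027794.4, chromosome 3, 55182028 to 55209957, plus strand) had the largest fold changes between the times of the 7 genes. It was at 81.6, 81.1 and 205 CPM in wild type, and 289, 279 and 177 in the knockout at 260 h, and at 9.17, 3.68 and 0.752 in wild type, and 4.03, 24.0 and 21.4 in the knockout at 360 h. The fall was −4.80 ± 0.87 on the log2 scale in wild type (edgeR adjusted p = 0.00113) and −3.91 ± 0.82 in knockout (edgeR adjusted p = 0.00553). It did not rest on the pre-meiotic cells, without which the changes were −5.38 ± 0.90 and −4.79 ± 0.86. Sohlh2 was not called between genotypes at 260 h (1.01 ± 0.74, edgeR adjusted p = 0.658) or 360 h (1.90 ± 0.79, edgeR adjusted p = 0.107). At 360 h it was called with DESeq2 (1.76 ± 0.69, adjusted p = 0.0383) and with edgeR without wild-type library 1 (adjusted p = 0.0335) or knockout library 1 (0.0466). The order of the means was knockout 260 h (248 ± 61.8 CPM), wild type 260 h (123 ± 71.6), knockout 360 h (16.5 ± 10.8) and wild type 360 h (4.53 ± 4.27). Of neighbours in that order only the second and the third differed beyond their spread (−2.89 ± 0.79, edgeR adjusted p = 0.0284). That call was lost with the replicate number as a block (−2.90 ± 0.91, edgeR adjusted p = 0.0674), with no filter (0.0555), without knockout library 1, 2 or 3 of 360 h (0.0883, 0.0637 and 0.0820) and without wild-type library 3 of 260 h (0.133).

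Sohlh1 (ENSMUSG00000059625.6, chromosome 2, 25842995 to 25847248, minus strand) had the same order in time but a spread that left no call. It was at 59.6, 48.0 and 40.9 CPM in wild type, and 53.7, 36.0 and 42.6 in the knockout at 260 h, and at 13.7, 13.3 and 0.575 in wild type, and 1.13, 25.6 and 32.7 in the knockout at 360 h. Its groups overlapped between genotypes, while in wild type every 260 h library lay above every 360 h library. The log2 fold change of the times was −2.44 ± 1.03 in wild type (edgeR adjusted p = 0.0789) and −1.15 ± 0.98 in knockout (edgeR adjusted p = 0.435), the former called with only the wild-type libraries in the fit (adjusted p = 0.0389) or without pre-meiotic cells (0.0495). Between genotypes it was −0.16 ± 0.97 at 260 h (edgeR adjusted p = 0.974) and 1.13 ± 0.99 at 360 h (edgeR adjusted p = 0.454). No pair of its 4 group means was called.

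The 2 SOHLH genes parted after the pre-meiotic cluster. There both stood at similar detection, with UMIs of both in 122 of 137 thinned cells, at 158 CPM for Sohlh1 and 109 for Sohlh2. In cluster 3 Sohlh1 was at 10.8 CPM in knockout and 18.0 in wild type, while Sohlh2 was at 362 and 229, and 140 of 214 cells had Sohlh2 alone, 74 both and 0 Sohlh1 alone. Sohlh2 is among the top 10 genes of that cluster and Six5 among those of cluster 4, and the clusters were made from the same cells, so levels by cluster are a description. In cluster 2 (wild-type cells of 260 h) Sohlh1 was at 27.1 and Sohlh2 at 102 CPM. In the late pachytene clusters 4 and 5 both were low, Sohlh2 at 11.7 CPM in knockout and 2.22 in wild type, and Sohlh1 at 8.82 and 2.86.

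Kit (ENSMUSG00000005672.12, chromosome 5, 75574916 to 75656722, plus strand), the receptor tyrosine kinase of differentiating spermatogonia, was at 64.3, 13.2 and 4.88 CPM in wild type, and 24.8, 80.6 and 32.1 in the knockout at 260 h. At 360 h its level was 9.26, 6.32 and 1.90 CPM in wild type, and 4.29, 37.1 and 39.4 in the knockout. The groups overlapped at both times, at 360 h because knockout library 1 lay among the wild-type libraries. The log2 fold change was 0.76 ± 0.95 at 260 h (edgeR adjusted p = 0.826) and 2.23 ± 1.00 at 360 h (edgeR adjusted p = 0.134). The order of the means was knockout 260 h (45.8 ± 30.3 CPM), wild type 260 h (27.5 ± 32.2), knockout 360 h (26.9 ± 19.6) and wild type 360 h (5.83 ± 3.70). No neighbours differed beyond their spread, and only the first and the last did (−2.99 ± 1.02, edgeR adjusted p = 0.0310). Counts of 3′ ends do not tell the full-length receptor from the truncated form that haploid germ cells make.

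Kit, like Stra8, had many of its UMIs in the few pre-meiotic cells of 360 h. At 360 h these held 47.5%, 47.8% and 53.5% of Kit UMIs in the wild-type libraries and 70.7% and 62.9% in knockout libraries 2 and 3. Its level in the late pachytene class was 3.96, 11.4 and 14.6 CPM in knockout and 4.17, 2.80 and 0.762 in wild type (1.97 ± 0.70, edgeR adjusted p = 0.0570). There it was called with DESeq2 (adjusted p = 0.0136), and with edgeR with no filter on low counts (adjusted p = 0.0100) or without knockout library 1 (0.0394). The level in other cells was 4.40% and 6.83% of that in pre-meiotic cells in knockout libraries 2 and 3, and 1.90%, 1.96% and 0.359% in wild type. Leydig and mast cells also use KIT. The 9 Leydig markers summed to 36.3 to 119 CPM in wild type at 260 h, 18.7 to 31.7 in knockout at 260 h, 8.18 to 15.0 in wild type at 360 h and 24.3 to 28.1 in knockout at 360 h, with 0 to 3 of them at 0 in a library. The 12 macrophage, mast cell and blood markers summed to 3.23 to 561 CPM over the libraries, with 0 to 9 at 0. The highest sum was that of wild-type library 1 at 260 h, where the mast cell markers Cpa3 and Mcpt4 were both at 0. The part of Leydig, macrophage, mast and blood cells in the level of Kit was not tested.

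In the pre-meiotic class at 260 h 6 of the 7 genes passed the filter on low counts (Gm4969 did not), and 0 were called in either direction, where 0.0327% of 12223 genes were called by edgeR (0.0245% higher, 0.00818% lower, and 9.66% at an unadjusted p under 0.05, with 174 genes by DESeq2, which called 0 of the members). Their median log2 fold change was 0.05, and that of all genes −0.06. Gm4969 itself was at 1.34, 0 and 4.31 CPM in wild type, and 12.2, 1.88 and 9.54 in the knockout. In the late pachytene class at 360 h 2 of 7 were higher and 0 lower (34.9% of 16803 genes called, 15.5% higher, 19.4% lower). Between the times 2 of 7 fell in wild type (39.9% of genes called, 20.9% higher, 18.9% lower) and 1 of 7 in knockout (23.5% called, 13.3% higher, 10.2% lower), with 0 rising in either. The genotype effect was not called as different between the times for any of the 7 by edgeR or DESeq2 (5.08% of genes called by edgeR, 2.3% higher, 2.78% lower, and 20.6% at an unadjusted p under 0.05). Against wild type at 260 h, knockout at 360 h had 1 member higher (Gm4969, 5.45 ± 0.77, edgeR adjusted p = 5.21e-04) and 1 lower (Sohlh2), where 15.7% of genes were called (8.88% higher, 6.79% lower). The Sohlh2 call was lost with the replicate block (edgeR adjusted p = 0.0674), with no filter and without any 1 of the 4 libraries named with its levels. These comparisons share groups of libraries and are not independent of each other.

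The pathways around the 7 genes were read from lists. Over all genes 1.89% were called between genotypes at 260 h. Of 18 tested genes of retinoic acid metabolism and reception, which lie upstream of Stra8, 0 were called at 260 h and at 360 h 5 were higher and 1 lower in knockout, with a median log2 fold change of 1.34 beside 0.03 for all genes, of which 22.5% were called. Dhrs3, a retinaldehyde reductase, was at 126 ± 39.0 CPM in knockout against 2.00 ± 1.14 (6.00 ± 0.82, edgeR adjusted p = 1.95e-04). Rbp4, the retinol carrier, was at 43.6 ± 5.85 against 1.58 ± 0.558 CPM, and Rdh11, a retinol dehydrogenase, was lower at 132 ± 45.0 against 511 ± 143 CPM. The median of the same list at 260 h was −0.04.

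Of 29 genes of early meiotic prophase, 1 was higher and 1 lower in knockout at 260 h, and 15 were higher and 0 lower at 360 h (medians −0.11 and 1.33). Over all genes 0.582% were higher and 1.31% lower at 260 h, and 8.93% higher and 13.5% lower at 360 h (medians −0.01 and 0.03). Ugt8a, a galactosyltransferase gene, was the 1 higher at 260 h (24.6 ± 3.22 against 5.25 ± 1.25 CPM) and Spo11, which cuts DNA to start recombination, the 1 lower (26.7 ± 5.75 against 78.8 ± 38.2). Ugt8a lost this call with spike-in scaling and without any 1 of the 6 libraries compared (edgeR adjusted p = 0.0577 to 0.244). Spo11 lost it with spike-in scaling, with only the libraries compared in the fit, and without any 1 of those libraries but wild-type library 1 (0.0644 to 0.152). At 360 h they included Prdm9, which marks recombination hotspots (65.3 ± 17.4 against 4.29 ± 0.694 CPM), and Zcwpw1, which reads its mark (399 ± 63.1 against 30.3 ± 6.83). Of the 10 markers of leptotene to zygotene, of which 8 are also on this list, 8 were higher in knockout at 360 h and 0 lower. The 20 late pachytene markers went the other way, with 0 higher and 15 lower at 360 h (median −2.28), 0 higher and 14 lower within the late pachytene class (median −2.07), and 0 higher and 5 lower at 260 h. Summed, they stood at 3099 CPM in cluster 4 and 6731 in cluster 5, and at 1664 and 887 in clusters 2 and 3. The part of this difference in stage markers in the genotype differences of the 7 genes was not tested.

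Of 15 partners of MEIOC and YTHDC2 and genes of the m6A machinery, 0 were called at 260 h and 3 were higher and 0 lower at 360 h, with a median of 0.22. These 3 of 15 are close to the 22.5% called among all genes. They were Zc3h13, of the m6A writer complex (82.9 ± 4.75 against 25.6 ± 6.21 CPM), the m6A reader Ythdf1 (54.2 ± 9.29 against 20.7 ± 6.78) and Ccna2, the mitotic cyclin whose RNA the complex holds down (20.2 ± 10.8 against 6.54 ± 2.99). Rbm46, the third partner, was at 156 ± 17.9 against 180 ± 50.4 CPM and was not called. All 3 calls were lost with spike-in scaling (adjusted p = 0.192, 0.365 and 0.187), and that of Ccna2 also without wild-type library 2 or 3 or knockout library 2 or 3 (edgeR adjusted p = 0.0633 to 0.110). Of 22 spermatogonial factors around SOHLH1 and SOHLH2, 0 were called at 260 h and 5 were higher and 1 lower at 360 h (median 1.45), where 8.93% of all genes were higher and 13.5% lower. Tcf12, a basic helix-loop-helix partner gene, was at 101 ± 2.54 against 5.32 ± 0.963 CPM, Dnmt3b, a DNA methyltransferase, at 31.1 ± 1.66 against 5.63 ± 1.21, and Dazl, a germ-cell RNA-binding protein, at 378 ± 138 against 142 ± 29.4, the last a call lost with spike-in scaling (adjusted p = 0.139). In wild type 16 of these 22 fell between the times and 1 rose, where 18.9% of all genes fell and 20.9% rose. Of 24 genes of KIT signalling 0 were called at 260 h, and at 360 h 4 were higher and 4 lower (median 0.06), where 22.5% of all genes were called, among them Jak2 (18.8 ± 6.12 against 2.00 ± 1.00 CPM) and, lower, Cblb (12.2 ± 2.62 against 43.7 ± 8.45) and Stat5a (3.84 ± 0.926 against 18.1 ± 3.91). The 18 spermatogonial markers, of which 15 are also on the list of spermatogonial factors, had 3 higher and 1 lower in knockout at 360 h, beside 0, 9 and 10 pre-meiotic cells in its libraries against 2, 2 and 1. The part of these cells in the lists was not tested.

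Genes whose level followed a member most closely over the 12 libraries were found among 6859 genes with a mean of at least 20 CPM, by Pearson's r of log2(CPM + 1), which is a description of libraries that share groups. By Pearson's r the closest to Gm4969 were Fam81a (0.97), Pbx3 (0.96) and Grb10 (0.95). For Ythdc2 they were Topbp1 (0.98), Shld2 (0.98) and Dzip3 (0.97), for Meioc Yipf4 (0.92), Tmem30a (0.90) and Cul1 (0.89), and for Sohlh2 Pkm, Zfp740 and Itgb1 (0.98 each). For Sohlh1 they were Mageb4 (0.96), Psme1 (0.96) and Usp22 (0.95), and for Kit Wrap53 (0.93), Alad (0.92) and Clu (0.92), of which Clu is also on the Sertoli list. Stra8 had the weakest likeness, to Defb36 (0.84), Tmsb4x (0.78) and Eef1akmt1 (0.73). For some members the order depended on the measure. By Spearman's rho, a correlation of ranks, Fam81a, Pbx3 and Grb10 stood at 63, 36 and 178 for Gm4969. Mageb4, Psme1 and Usp22 stood at 226, 190 and 3 for Sohlh1. Defb36 for Stra8, and Zfp740 and Itgb1 for Sohlh2, stood at rank 1.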

How the data were processed

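Per the labels' protocols, mouth-picked testis cells were barcoded in a Smart-seq2 protocol, captured at the 3′ end and sequenced. The authors' deposited tables hold raw UMI counts per gene and cell barcode, and their cell table names 929 of 1152 barcodes as kept, with clusters and classes. Tools in the submitters' processing notes are featureCounts 1.6.4, STAR 2.5.3a and UMI-tools 1.0.0, with the build mm10. No source used here gives the filter and strand settings or says whether doublets were removed, and none were called here. Kept cells had 44624 to 565099 gene UMIs (median 116685).

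Counts of kept cells were summed per library, because cells are not replicates, leaving out 92 spike-in rows. Genes kept by filterByExpr (20279) were scaled by TMM and fitted with edgeR 4.0.16 in R 4.3.3 (quasi-likelihood F-test, robust, two-sided, 1 coefficient per group, common biological coefficient of variation 0.486), with Benjamini-Hochberg adjustment over all genes tested. DESeq2 1.42.0, spike-in scaling, no filter, a replicate block, thinning to 40000 UMIs and leaving out libraries or pre-meiotic cells were alternatives. Class fits used libraries with at least 5 cells of the class. Tested on simulated data for knockout against wild type at 360 h (20279 genes), the fit called 61.5% of 200 genes changed by 4-fold, and 2 others. The changed genes were drawn from those with a mean of at least 5 CPM, so the share does not describe lower genes. They were also far fewer than the 22.5% of genes called in the real comparison, where the share called may differ. Intervals and limits for 0 cover counting error only.

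Same-numbered libraries did not deviate together (1 of 18 pairs with a correlation over 0.1, −0.20 to 0.22), so the numbers were not taken to pair them. The members, the gene lists and the tests were chosen with earlier results of these data known. Besides the members, named genes are neighbours within 5000 bases with a mean of at least 1 CPM, up to 3 called genes with the smallest p per list, and the 3 most like genes per member. Rbm46 was named after its values were seen. Promoter sequences are from RefSeq (GRCm38.p6), and 6 of the 7 members were searched, Ythdc2 being left out.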

Additional observations from a re-analysis of the deposited data

How the results depend on the processing

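Of the members' fold changes under the alternatives, 724 kept their side of the threshold, 19 lost the call and 11 gained it. With a call in either fit, 0 turned direction. The 724 include changes of direction with no call in either fit. For example, Stra8 at 260 h went from 0.47 to −0.12 without pre-meiotic cells. The cause of the changes given here was not tested. Members called at 360 h numbered 1 in place of 2 with spike-in scaling, 3 with DESeq2 and 1 to 2 with a library left out. Over time in wild type they numbered 1 in place of 2 with spike-in scaling, and 3 with only the libraries compared or without pre-meiotic cells. For knockout at 360 h against wild type at 260 h they numbered 1 in place of 2 with no filter and 1 to 2 with a library left out. In late pachytene cells they numbered 4 in place of 2 with no filter, 3 with DESeq2 and 1 to 3 with a library left out.

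Genes called between genotypes at 260 h (383) numbered 953 with DESeq2, 246 with spike-in scaling, 687 with no filter, 181 with only the libraries compared, 600 without pre-meiotic cells and 115 to 577 with a library left out. At 360 h (4554) they numbered 2600 to 4179 with a library left out. In knockout over time (4759) they numbered 2567 with spike-in scaling and 2764 to 3669 with a library left out. The genotype by time difference (1030) gave 2174 with DESeq2, 408 with spike-in scaling, 1581 with no filter and 482 to 1133 with a library left out. Knockout at 360 h against wild type at 260 h (3176) gave 1437 with spike-in scaling and 1448 to 3313 with a library left out. Pre-meiotic cells (4) gave 174 with DESeq2, 203 with no filter and 0 to 222 with a library left out, and late pachytene cells (5858) gave 3707 to 6166. Under spike-in scaling the all-gene median of log2 fold changes went from −0.01 to −0.28 at 260 h, with 31 higher and 215 lower, and from 0.03 to −0.48 at 360 h, with 637 higher and 3091 lower. Dnmt3b in knockout over time turned to 1.38 without pre-meiotic cells.

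In settings chosen after seeing the data, wild-type library 3 as the only one at 260 h gave 122 genes and 0 members between genotypes at 260 h, 4989 genes in wild type over time, 636 for the genotype by time difference, and 2105 genes and 1 member for knockout at 360 h against wild type at 260 h. Knockout library 1 as the only one at 360 h gave 996 genes and 1 member at 360 h, 2636 in knockout over time, 191 for the genotype by time difference, and 1720 genes and 1 member in the last comparison. A lone library is assumed to vary like the other groups.

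With the replicate number as a block, 338 genes were called at 260 h and 4026 at 360 h, with 1 and 2 members. Sohlh2 lost its call in knockout at 360 h against wild type at 260 h (1 member in place of 2), no other member call changed, and Fbxo46 lost its call at 360 h. The same number correlated best in 3 of 18 cases, each with 3 libraries to choose from, which gives no hint that the numbers pair libraries. Alternatives planned within the early pachytene class were not run, since the top genes of its cluster 3 held more markers of another stage than of its own.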
